A study of Homo sapiens with 4 samples.

Results

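Interferon-stimulated genes, interferon-related transcription factors and innate sensors were followed in SK-N-SH, a human neuroblastoma cell line that grows attached, after 24 h with the dioxin TCDD (2,3,7,8-tetrachlorodibenzo-p-dioxin) at 1e-10 M. The genes were chosen by symbol for their function, 36 genes on chromosomes 1 to 5, each measured by 1 array feature that the platform annotation pairs with that symbol alone. They belong to a table of 13493 features, of which 6647 carry exactly 1 symbol and 5227 were protein-coding genes. RNA was measured on a human transcriptome microarray, with 2 arrays of cells given TCDD in dimethyl sulfoxide (DMSO) and 2 arrays of cells given DMSO. DMSO was at 0.1% or lower in all cells, replicates are titled biological, and the labels name neither cultures nor batches. P-values therefore measure the spread between these arrays, which may be technical, and their number limits every value. The labels name no interferon and no agonist of a sensor in either group.

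Interferons are secreted when a cell detects viral or other foreign nucleic acid. Type I interferons act through a receptor bound to the kinases JAK1 and TYK2, which activate transcription factors that bind interferon-stimulated response elements (ISRE) in the promoters of their target genes. The products block viral entry, translation and replication, edit or degrade RNA, conjugate the ubiquitin-like protein ISG15, and raise the level of the sensors themselves. TCDD is a persistent pollutant and a ligand of the aryl hydrocarbon receptor, a transcription factor that binds a response element with the core GCGTG. One of its induced genes, TIPARP, is known in human and mouse cells to restrain type I interferon signalling.

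The promoters of the genes carried the letters of the response element more often than promoters did in general, which is the reason a set of them is shown. RefSeq windows of 300 bases (GRCh38.p14, 250 bases before to 50 after the transcript start) were matched for 31 of the 36 genes, 44 windows in all, some of which overlap. An ISRE-like run, GAAA and a second GAAA with 2 bases of any kind between, on either strand with overlapping matches allowed, was present in 21 of the 44 windows (47.7%) against 3.57% of all 35116 windows. By gene it was present for 19 of 31, or 61.3%, against 4.38% of all genes. A run like the interferon-gamma activated site, TTCNNNGAA, was present in 15.9% of these windows and 7.66% of all. The dioxin-response core GCGTG on either strand was present in 36.4% of these windows and 36.5% of all. A match describes letters in a window and does not show a bound site. The windows of 4 genes follow, 5′ to 3′ on the strand of the gene, with ISRE-like runs in capitals. They are the gene that was called here, IFI6, and the classical interferon targets ISG15, IFI44L and IFIH1.
IFI6 (chr1:27672143-27672442, minus strand): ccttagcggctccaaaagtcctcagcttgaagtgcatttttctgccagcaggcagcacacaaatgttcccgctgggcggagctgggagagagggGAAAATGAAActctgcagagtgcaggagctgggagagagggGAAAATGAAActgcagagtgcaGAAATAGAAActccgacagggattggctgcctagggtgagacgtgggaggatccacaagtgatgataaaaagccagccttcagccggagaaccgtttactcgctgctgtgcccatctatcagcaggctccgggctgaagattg
ISG15 (chr1:1013247-1013546, plus strand): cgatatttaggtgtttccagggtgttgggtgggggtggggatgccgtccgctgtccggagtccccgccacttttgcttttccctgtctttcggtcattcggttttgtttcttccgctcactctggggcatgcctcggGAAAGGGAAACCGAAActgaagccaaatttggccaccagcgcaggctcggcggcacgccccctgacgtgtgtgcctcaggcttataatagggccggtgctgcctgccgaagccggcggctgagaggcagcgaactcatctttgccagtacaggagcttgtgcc
IFI44L (chr1:78620198-78620497, plus strand): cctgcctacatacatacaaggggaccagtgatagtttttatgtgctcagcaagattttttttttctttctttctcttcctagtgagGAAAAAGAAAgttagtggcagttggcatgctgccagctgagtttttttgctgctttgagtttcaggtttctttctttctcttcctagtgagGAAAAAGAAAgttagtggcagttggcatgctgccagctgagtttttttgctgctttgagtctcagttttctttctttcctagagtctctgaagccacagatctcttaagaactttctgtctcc
IFIH1 (chr2:162318635-162318934, minus strand): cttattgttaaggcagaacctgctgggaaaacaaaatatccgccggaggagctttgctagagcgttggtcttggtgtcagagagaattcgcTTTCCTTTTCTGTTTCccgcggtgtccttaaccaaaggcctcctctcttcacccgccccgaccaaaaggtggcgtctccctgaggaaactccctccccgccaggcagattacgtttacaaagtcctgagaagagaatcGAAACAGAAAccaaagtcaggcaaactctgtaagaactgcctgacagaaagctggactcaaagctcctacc
IFI6 held 3 such runs, which begin 156, 115 and 93 bases before the start. ISG15 held 2 overlapping runs from 113 and 107 bases before the start, IFI44L 2 runs at 164 and 73, and IFIH1 3 runs at 159, 153 and 21, the outer pair overlapping and on the opposite strand.

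Arrays of a group correlated across features at 0.997 for DMSO and 0.999 for TCDD, and medians lay between 8.19 and 8.22 log2 units. Paired differences across features had an SD of 0.132 within DMSO, 0.0855 within TCDD, 0.187 to 0.205 between DMSO replicate 1 and the TCDD arrays, and 0.238 to 0.254 between DMSO replicate 2 and the TCDD arrays. DMSO replicate 2 thus lay farthest from the others, and the widths of the distributions differed between arrays, with interquartile ranges of 2.00 to 2.21. Bright and dim features differed in direction between the groups. A mark at a mean signal of 8.38, under which 95% of 71 olfactory receptor features lay, was used to separate them, since olfactory receptors are silent in most tissues. At or above it, 82.2% of protein-coding features read higher in TCDD, and under it 32.7% did. All 6 measured neuroblastoma markers (HAND1, HAND2, GATA2, ISL1, MYCN and ALK) lay above the mark, whereas 0 of 6 leukocyte, 0 of 3 endothelial, 0 of 1 epithelial and 0 of 2 brain neuron and glia markers did.

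The 36 genes followed here, 21 of them under the mark, differed little between TCDD and DMSO. By limma, with p-values adjusted over all 13493 features and a threshold of 0.05, 1 of the 36 genes rose, IFI6, and 0 fell, against 17.4% of all features called in either direction (9.41% higher, 8.01% lower) and 11.1% of protein-coding features (7.25% higher, 3.83% lower). At an unadjusted p under 0.05, 6 were higher and 2 lower, against 39.5% of all features in either direction (22.8% higher, 16.7% lower). None reached 1.5-fold at an unadjusted p under 0.05, as 1.67% of all features did. Differences ran from -0.20 to 0.21 on the log2 scale with a median of 0.036, beside a median of 0.023 over all features and 0.065 over protein-coding features. For all 36 genes the 95% interval of the difference lay inside 1.5-fold in both directions, as it did for 94.1% of all features and 99.1% of protein-coding features. The lowest bound was -0.41, of RTP4, and the highest 0.34, of IFI6. With 2 arrays against 2, an exact permutation test for a single gene cannot go below p = 0.333, two-sided, so the adjusted p-values rest on the spread that limma shares between features. With 1 array left out, 1 group holds a single array, and the residual spread comes from the other group alone. Without DMSO replicate 1 there were 4 genes called higher (IFI6, ADAR, LAP3 and TLR2) and 2 lower (TLR5 and TNFSF10), against 34.5% of all features, and without any 1 of the other 3 arrays there were 0 in either direction, against 4.77% of all features without DMSO replicate 2, 8.43% without TCDD replicate 1 and 12.1% without TCDD replicate 2.

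**Figure D1:**
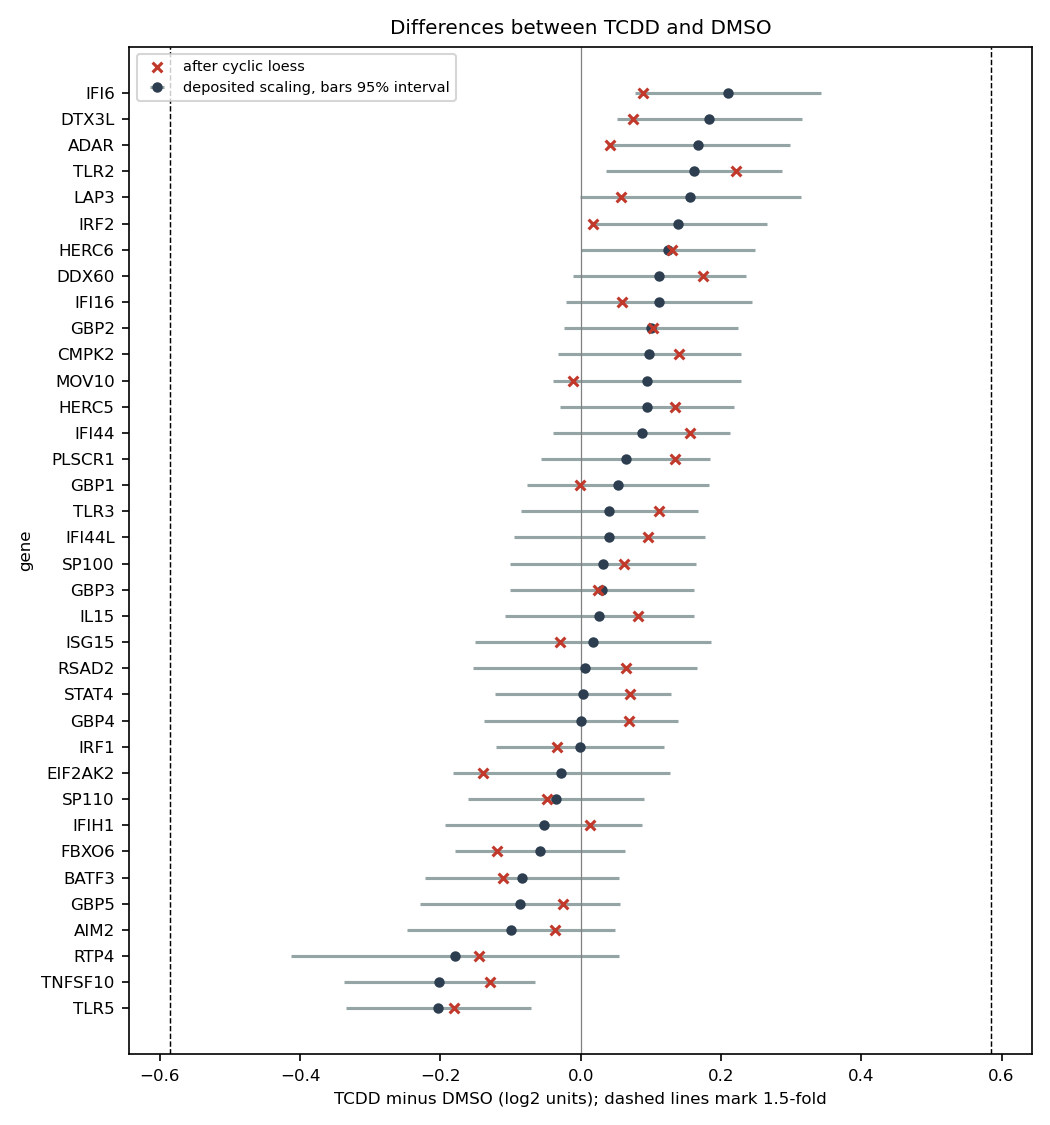
The x axis gives the TCDD mean minus the DMSO mean in log2 units for each of the 36 genes on the y axis, as points with 95% limma intervals (n = 2 arrays each), with crosses for the same difference after cyclic loess normalization and dashed lines at 1.5-fold. All intervals lie inside the dashed lines, and the crosses of IFI6, DTX3L, ADAR and IRF2 lie nearer to 0 than their points.

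In 23 of the 36 genes the arrays of the groups did not overlap, 16 with TCDD above and 7 with TCDD below, against 71.7% of all features (40.7% above, 30.9% below) and 76.9% of protein-coding features (53.2% above, 23.6% below). The DMSO arrays of 16 of the 36 genes lay farther apart than the group means did, against 4765 of 13493 features and 1694 of 5227 protein-coding features. For these genes, among them ISG15, RSAD2, STAT4, IFIH1 and IFI44L, the difference was smaller than the distance between the DMSO replicates.

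**Figure D2:**
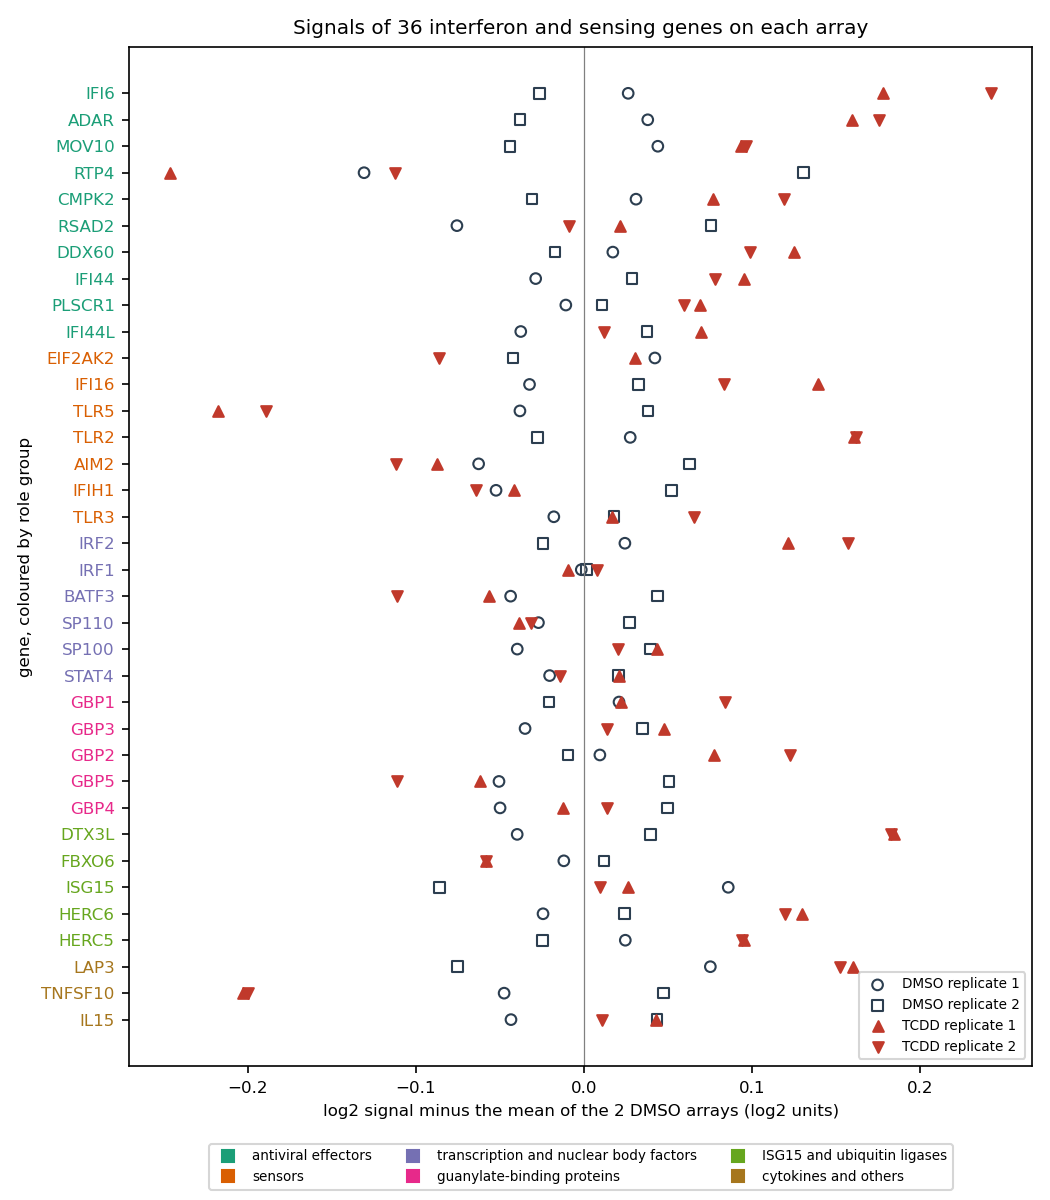
Each row is a gene and the x axis gives its log2 signal on each array minus the mean of its 2 DMSO arrays, with open symbols for DMSO and filled symbols for TCDD, and gene names coloured by role. Filled symbols lie to the right of both open ones in 16 rows and to the left in 7, and RTP4 has the widest spread between DMSO arrays, 0.26 log2 units.

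Among antiviral effectors, the proteins that act on viral RNA, membranes or nucleotides, 1 of 10 rose and 0 fell, with a median difference of 0.091. IFI6 encodes a small membrane protein that limits cell death and the replication of flaviviruses. It read 10.78 and 10.73 on the DMSO arrays and 10.94 and 11 on the TCDD arrays. Both TCDD arrays were above both DMSO arrays, and the rise of 0.21 (SE 0.055, limma adjusted p = 0.047) corresponds to 1.16-fold with a 95% interval from 1.06 to 1.27. The call was lost after cyclic loess (0.089, adjusted p = 0.221) and quantile normalization (0.053, adjusted p = 0.392). With 1 array left out, the difference of IFI6 ran from 0.18 (without TCDD replicate 2) to 0.24 (without TCDD replicate 1). Features as bright as this one mostly read higher in TCDD, as stated above, and the part of that in the rise of IFI6 was not tested.

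ADAR, the adenosine deaminase that edits double-stranded RNA and keeps it from the sensors, read 10.56 and 10.49 in DMSO and 10.68 and 10.70 in TCDD. The groups did not overlap, but the difference of 0.17 (SE 0.054, limma adjusted p = 0.075) did not pass, and it was 0.042 after cyclic loess. The classical interferon targets RSAD2 and IFI44L gave no difference beyond their spread. Their mean signals, 7.35 and 5.98, lay under the mark. RSAD2, or viperin, a radical enzyme that makes a chain-terminating nucleotide, read 7.28 and 7.43 in DMSO and 7.37 and 7.34 in TCDD. Its TCDD arrays lay between the DMSO arrays (0.0061, SE 0.066, limma adjusted p = 0.951). IFI44L, a widely used marker of interferon exposure, read 5.926 and 6.001 in DMSO and 6.033 and 5.975 in TCDD, and the groups overlapped. The difference was 0.041 (SE 0.056, limma adjusted p = 0.605) and its 95% limits were -0.095 and 0.18. The remaining 6 effectors were MOV10, an RNA helicase that restricts retroelements, the nucleotide kinase CMPK2, the helicase DDX60, IFI44, the phospholipid scramblase PLSCR1 and the receptor transporter RTP4. Their differences ran from -0.18 (RTP4) to 0.11 (DDX60), and 0 passed (limma adjusted p from 0.154 to 0.363). In 5 of these 6, all but RTP4, both TCDD arrays lay above both DMSO arrays. The same held for 40.7% of all features and 53.2% of protein-coding features.

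Among the sensors of foreign nucleic acid and bacterial products, 0 of 7 passed in either direction, and the median difference was -0.028. TLR5, the receptor for bacterial flagellin, read 8.13 and 8.20 in DMSO and 7.95 and 7.98 in TCDD. Its mean signal, 8.06, lay under the mark. TLR5 lay lower on both TCDD arrays and missed the threshold narrowly, with a difference of -0.20 (SE 0.055, limma adjusted p = 0.051). It was called lower with a trended robust prior (adjusted p = 0.042). With 1 array left out, its difference ran from -0.24 (without DMSO replicate 1) to -0.17 (without DMSO replicate 2). Its difference was -0.18 after cyclic loess (adjusted p = 0.052). TLR2, the receptor for bacterial lipopeptides, lay the other way, at 7.27 and 7.22 in DMSO and 7.40 and 7.41 in TCDD. The groups did not overlap (0.16, SE 0.052, limma adjusted p = 0.075), and the difference was 0.22 after cyclic loess (adjusted p = 0.058). The mean signal of TLR2, 7.32, lay under the mark.

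EIF2AK2 encodes PKR, the kinase that stops translation when it binds double-stranded RNA. Its signal, the highest of the 36, was 11.31 and 11.22 in DMSO and 11.30 and 11.18 in TCDD. The groups overlapped (-0.028, SE 0.064, limma adjusted p = 0.762). IFIH1, or MDA5, the cytosolic sensor of long double-stranded RNA, read 7.09 and 7.20 in DMSO and 7.11 and 7.08 in TCDD, again with overlap. The difference was -0.053 (SE 0.058, limma adjusted p = 0.513), and 0.013 after cyclic loess. The mean signal of IFIH1, 7.12, lay under the mark. IFI16 and AIM2, DNA sensors encoded side by side on chromosome 1, differed by 0.11 and -0.10, and TLR3, the endosomal receptor for double-stranded RNA, by 0.041 (limma adjusted p from 0.180 to 0.575 for the 3 genes).

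Markers of other cell types, dim here, mostly read lower in TCDD as well. All 6 leukocyte markers (PTPRC, CD2, CD48, FCGR3A, CD247 and CD28) differed in this direction, by -0.29 to -0.042. Of these 6, 1, the Fc receptor FCGR3A, was called lower, against 8.01% of all features and 22 of 71 olfactory receptor features. All 3 endothelial markers differed by -0.15 to -0.052 and both brain neuron and glia markers by -0.093 to -0.026, while the epithelial marker EPCAM differed by 0.054. The summed linear signal of the leukocyte markers was 1023 and 1080 on the DMSO arrays and 941 and 952 on the TCDD arrays. None of these 12 markers reached the mark of 8.38, and they lay in the range where most features read lower in TCDD, and their part in the lower readings of TLR5 and AIM2 was not tested. In bulk RNA, fewer cells of a type and less RNA per cell cannot be told apart. The labels name only the line SK-N-SH, and signals under the mark do not show that cells of these other types were present.

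The interferon regulatory and nuclear body factors hardly differed. Of 6, 0 passed in either direction, and the median difference was 0.0013. IRF1, the activator that drives many interferon-gamma targets, gave nearly equal readings on all arrays, 8.65 and 8.65 in DMSO and 8.64 and 8.66 in TCDD. The difference was -0.00095 (SE 0.050, limma adjusted p = 0.990) and its 95% limits were -0.12 and 0.12, within 1.09-fold in either direction. IRF2, which competes with IRF1 for the same element, read 9.93 and 9.88 in DMSO and 10.03 and 10.06 in TCDD. Its groups did not overlap, and the difference of 0.14 (SE 0.052, limma adjusted p = 0.104) became 0.018 after cyclic loess. STAT4, which carries interleukin-12 and type I interferon signals in lymphocytes, read 7.04 and 7.08 in DMSO and 7.09 and 7.05 in TCDD. Those ranges are almost the same (0.0035, SE 0.052, limma adjusted p = 0.965). The mean signal of STAT4, 7.07, lay under the mark. SP100 and SP110, proteins of nuclear bodies, and BATF3, an AP-1 family factor of dendritic cells, differed by 0.032, -0.035 and -0.084, and 0 of these 3 passed.

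The guanylate-binding proteins are large GTPases that attack the membranes of intracellular pathogens and are typical targets of interferon gamma. Of 5, 0 passed in either direction, with a median difference of 0.031. The brightest, GBP1, read 8.85 and 8.81 in DMSO and 8.85 and 8.91 in TCDD. The TCDD arrays began where the DMSO arrays ended (0.053, SE 0.054, limma adjusted p = 0.482), and the difference was -0.0015 after cyclic loess. The other 4, GBP2, GBP3, GBP4 and GBP5, differed by -0.086 to 0.10 (limma adjusted p from 0.193 to 0.994). Members of this cluster on chromosome 1 did not share a direction, since GBP5 lay lower on both TCDD arrays and GBP2 higher on both.

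ISG15 is a ubiquitin-like protein that is attached to newly made proteins in interferon-treated cells, with HERC5 as its main ligase in human cells. ISG15 read 8.86 and 8.69 in DMSO and 8.80 and 8.78 in TCDD. Both TCDD arrays lay between the DMSO arrays (0.018, SE 0.069, limma adjusted p = 0.863), and the difference was -0.029 after cyclic loess. DTX3L, a ubiquitin ligase that works in a complex with PARP9, read 9.48 and 9.56 in DMSO and 9.70 and 9.70 in TCDD. The groups stood apart, but the difference of 0.18 (SE 0.054, limma adjusted p = 0.063) did not pass and was 0.074 after cyclic loess. HERC6, a relative of HERC5, read 8.17 and 8.22 in DMSO and 8.32 and 8.31 in TCDD. Both TCDD arrays were higher (0.12, SE 0.051, limma adjusted p = 0.126), and this difference, unlike that of DTX3L, was of the same size after cyclic loess (0.13, adjusted p = 0.081). HERC5 differed by 0.095 and FBXO6, a ubiquitin ligase subunit for glycoproteins, by -0.058, so that 0 of these 5 genes passed in either direction.

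Of the cytokines and the peptidase, 0 of 3 passed. TNFSF10 encodes TRAIL, a death ligand induced by interferons, and read 6.78 and 6.87 in DMSO and 6.62 and 6.63 in TCDD. The TCDD arrays were lower and nearly identical, with a difference of -0.20 (SE 0.056, limma adjusted p = 0.056). The mean signal of TNFSF10, 6.73, lay under the mark, where 32.7% of protein-coding features read higher in TCDD. The part of that in its lower reading was not tested. With 1 array left out, the difference of TNFSF10 ran from -0.25 (without DMSO replicate 1) to -0.15 (without DMSO replicate 2). After cyclic loess it was -0.13 (adjusted p = 0.077). LAP3, a leucine aminopeptidase that trims peptides and is induced by interferon gamma, read 9.41 and 9.26 in DMSO and 9.49 and 9.49 in TCDD. The DMSO arrays were 0.15 apart, as far as the groups were (0.16, SE 0.065, limma adjusted p = 0.129), and the difference was 0.057 after cyclic loess. IL15, the cytokine that sustains natural killer cells, differed by 0.027.

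**Figure D3:**
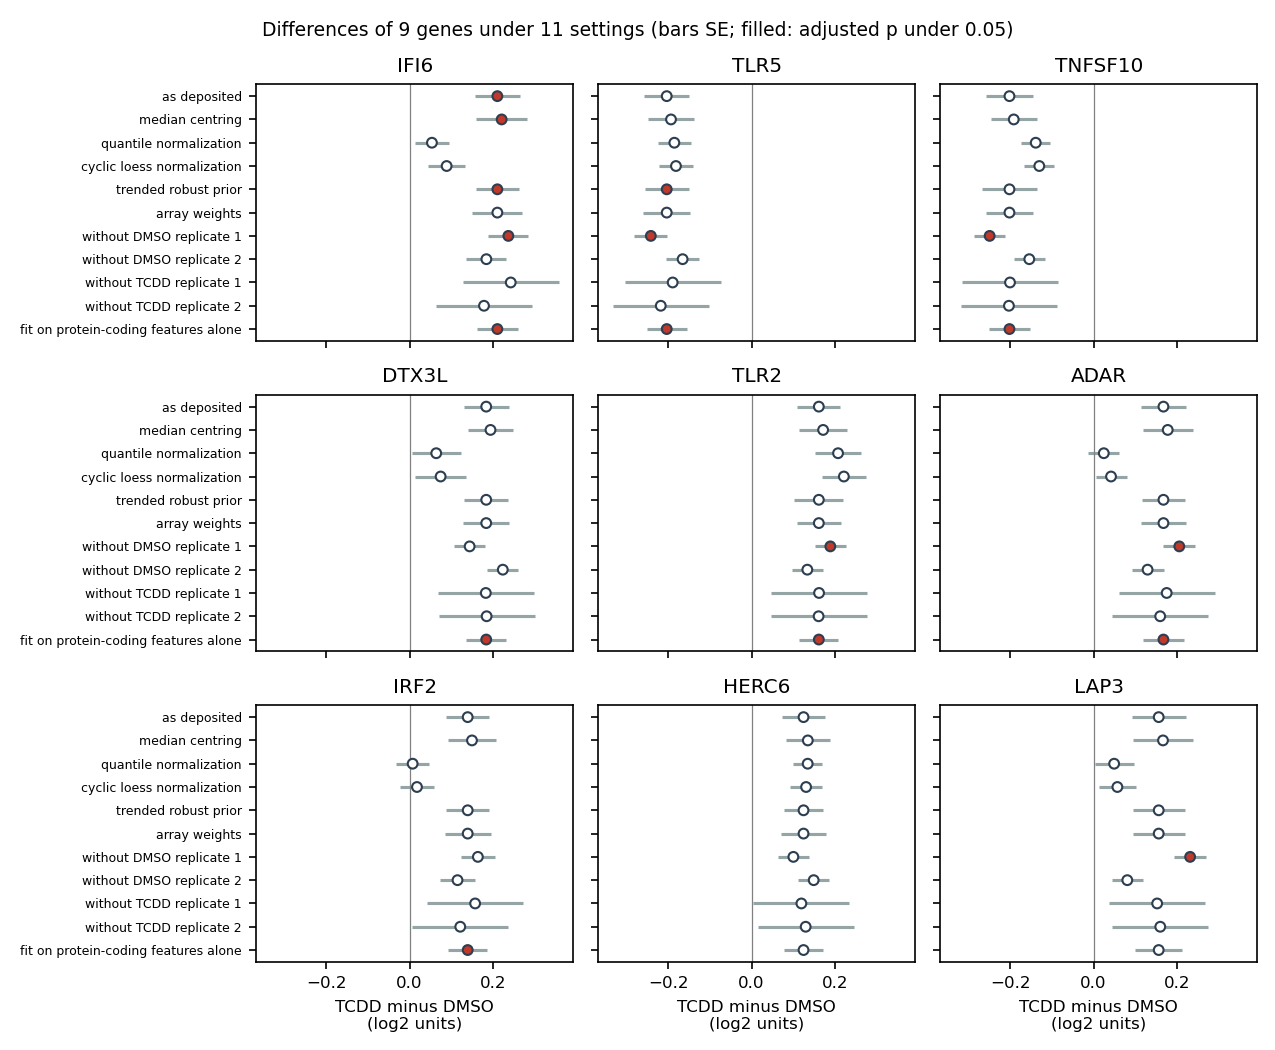
Each panel gives for 1 of the 9 genes with the smallest p the TCDD minus DMSO difference in log2 units (x axis) under 11 settings (y axis), with bars for the SE and filled points for an adjusted p under 0.05. The differences of IFI6, DTX3L, ADAR, IRF2, LAP3 and TNFSF10 shrink under quantile and cyclic loess normalization, while those of TLR2 and HERC6 do not and TLR5 lies at -0.19 and -0.18.

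Split at the mark of 8.38, 15 genes were bright and 21 dim. Of the bright genes 10 read higher in TCDD, with a median difference of 0.053, beside 0.11 for protein-coding features at or above the mark. Of the dim genes 15 read higher, with a median of 0.032, beside -0.053 for protein-coding features under the mark. After cyclic loess, which evens out the widths of the arrays, 7 of the 15 bright genes read higher (median -0.0015, protein-coding features 0.0084), and 16 of the 21 dim genes did (median 0.082, protein-coding features -0.0052). The dim genes that read higher included IFI44 (0.16 after cyclic loess, limma adjusted p = 0.055), DDX60 (0.17, adjusted p = 0.078), PLSCR1 (0.14, adjusted p = 0.086) and HERC6, chosen after their values were seen, and 0 of the 36 genes were called after cyclic loess, against 14.0% of all features. No set test was run on this split, and signals of different features are not levels of transcripts that can be ranked.

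**Figure D4:**
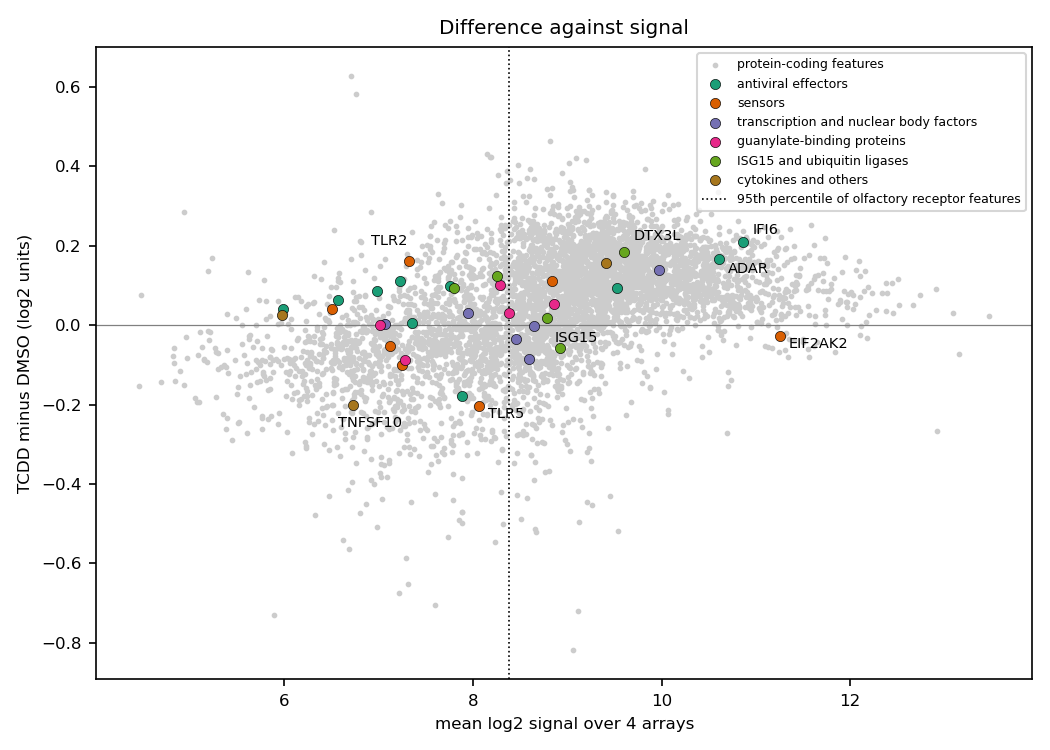
The x axis gives the mean log2 signal over 4 arrays and the y axis the TCDD minus DMSO difference in log2 units, for protein-coding features in grey and the 36 genes coloured by role, with a dotted line at the mark of 8.38. Most grey points to the right of the line lie above 0 and most to the left lie below it, and IFI6 and ADAR lie among the bright features.

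Genes with and without the letters of the response element were set side by side without a test and without matching for signal. The 19 genes with an ISRE-like run in a window had a median difference of 0.041, with 1 called higher and 0 lower, and the 12 without had a median of 0.063, with 0 called. At an unadjusted limma p under 0.05, 2 of the 19 were higher and 1 lower. Of the 12, 3 were higher and 1 lower, against 22.8% and 16.7% of all features. The arrays of TCDD and DMSO did not overlap in 10 of the 19 and 9 of the 12, against 71.7% of all features. The directions of neighbouring genes on the chromosomes were listed without a test, and 25 of the 36 genes read higher in TCDD. Of 7 adjacent pairs, IFI16 and AIM2 lay in opposite directions, as did GBP5 (-0.086) and GBP4, whose difference was only 0.00061. The neighbours GBP3 (0.031), GBP1 (0.053) and GBP2 (0.10) shared a direction. CMPK2 (0.098) and RSAD2 (0.0061) on chromosome 2, whose promoter windows overlap, and IFI44L (0.041) and IFI44 (0.087) on chromosome 1 lay in the same direction, as did HERC6 and HERC5 on chromosome 4.

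Further genes of the pathway differed little as well. Of 39 listed receptors, signalling proteins, sensors and induced genes, 31 had a feature of their own, and the other 8 were not analysed here. By limma, adjusted over all features, 0 passed in either direction, against 17.4% of all features. At an unadjusted p under 0.05, 4 were higher and 2 lower, against 22.8% and 16.7% of all features. The median difference was 0.0092. All 8 measured signalling genes, which include JAK1 (0.090) and STING1 (0.0092), read higher in TCDD, with a median of 0.11. Of these, 7 lay above the mark, where 82.2% of protein-coding features read higher with a median of 0.11. MYD88, the adaptor of most Toll-like receptors, read 10.20 and 10.10 in DMSO and 10.30 and 10.33 in TCDD (0.17, SE 0.058, limma adjusted p = 0.089). Of 7 sensors, all under the mark, 6 read lower, in a range where 32.7% of protein-coding features read higher. They included the neighbours of IFI16 and AIM2, PYHIN1, at 6.54 and 6.75 in DMSO and 6.40 and 6.37 in TCDD (-0.26, SE 0.076, limma adjusted p = 0.060), and MNDA, a nuclear protein of myeloid cells (-0.21, SE 0.059, limma adjusted p = 0.059). Both are dim, with mean signals of 6.51 and 7.02, and are normally made in leukocytes. Among 16 induced genes 8 read higher and 8 lower. PARP14, a mono-ADP-ribosyltransferase induced by interferon, differed most, at 9.24 and 9.14 in DMSO and 9.44 and 9.36 in TCDD (0.21, SE 0.061, limma adjusted p = 0.059). CXCL10, the chemokine most often used to read interferon signalling, differed by -0.0093 at a mean signal of 7.99, under the mark.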

How the data were processed

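The deposited values were log2 signals of 4 arrays, 1 column per array, made by the authors with RMA, per the submitters' processing notes. How RMA was set was not given in the sources used here. Groups came from the sample titles. The platform annotation supplied gene names, and all 36 genes matched RefSeq (GRCh38.p14) by Entrez identifier. RefSeq supplied names, gene order and promoter windows only.

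Each of 13493 features was fitted with limma 3.58.1 (lmFit, eBayes) in R 4.3.3, TCDD against DMSO without a block, with 2 residual and 4.27 prior degrees of freedom, and adjusted by Benjamini-Hochberg over all features. Differences are TCDD minus DMSO with moderated standard errors and 95% intervals. Promoters were searched with Python 3.11.15.

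The genes and lists were chosen with earlier results of these data known. Values on each array were given for called genes, the 8 uncalled genes with the smallest p, IRF1, IRF2, STAT4, ISG15, IFIH1, EIF2AK2, IFI44L and RSAD2, and the brightest gene of each role; of further pathway genes, for called ones and up to 4 uncalled ones. Alternatives covered scaling, dim features, the prior, array weights, the adjustment, a block and each array left out. A fit on protein-coding features alone was added after seeing the data. Each gene had 1 feature, so averaging of features did not apply.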

Additional observations from a re-analysis of the deposited data

How the results depend on the processing

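IFI6 was the only one of the 36 genes called, and the count of genes called higher went from 1 to 0 under quantile normalization, cyclic loess, array weights, adjustment over protein-coding features alone, and the rule that joins 1.5-fold to an unadjusted p under 0.05. It was 2 (1 lower) of 28 left without the dimmest 25% of features, where 21.98% of all features were called, 3 of 17 without the dimmest 50%, where 25.4% were, and 5 (2 lower) in the fit on protein-coding features alone, an alternative chosen after seeing the data, in which 33.8% of the features fitted were called. A trended robust prior gave 1 lower. With 1 array left out, 0 to 4 were called higher and 0 to 2 lower, the highest counts without DMSO replicate 1 and 0 without any 1 of the other 3. Over all features, 757 were higher under quantile normalization, 418 lower without the dimmest 50%, 1 higher and 1 lower when adjusted over protein-coding features alone, and 470 lower in the protein-coding fit. With 1 array left out, 370 to 2571 features were higher and 274 to 2090 lower, the lowest counts without DMSO replicate 2 and the highest without DMSO replicate 1. The fit with the replicate number as a block called 1936 features higher and 1698 lower, IFI6 (limma adjusted p = 0.031) higher, and TLR5 and TNFSF10 lower, 2 of the genes. The numbers do not pair the arrays by any label, and deviations of same-numbered arrays correlated at 0.037 across features.

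Of the further pathway genes, 1 was called higher (DDX60L, 0.17) after cyclic loess, 1 lower (PYHIN1, -0.25) under median centring, 1 higher and 2 lower with the block, 1 higher without the dimmest 25% or 50% and with a trended robust prior (PARP14), 2 higher and 2 lower in the protein-coding fit, and 0 to 3 in each direction with 1 array left out, the highest counts without DMSO replicate 1. The median difference of the 36 genes was 0.095 over the 17 left without the dimmest 50%, and 0.017 to 0.066 with 1 array left out. Among all 36 genes, signs turned for GBP1 (-0.0015) and ISG15 (-0.029) after cyclic loess, IFIH1 under quantile normalization (0.0099) and cyclic loess (0.013), MOV10 under quantile normalization (-0.011) and cyclic loess (-0.010), and IRF1 under median centring (0.0093). With 1 array left out they turned for EIF2AK2 (-0.086 to 0.030, with 0.014 among them), ISG15 (-0.068 to 0.10), RSAD2 (-0.069 to 0.082, with -0.0090), STAT4 (-0.017 to 0.024, with -0.014) and IRF1 (-0.0097 to 0.0078, with 0.00061), for GBP3 (-0.0044), GBP4 (-0.049), IL15 (-0.017) and SP100 (-0.0080) without DMSO replicate 1, and for GBP4 (-0.012) without TCDD replicate 2. The dioxin-response core was present in 20.5% of the genes' windows in the last 150 bases, against 23.1% of all windows. The cause of these shifts was not tested.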
